A study of Mus musculus with 4 samples.

Results

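Keratins, a claudin and transcription factors of the trophectoderm, the first epithelium of the mouse embryo, were followed in RNA-seq of mouse embryonic stem cells (ESCs) with and without *Terc*. The 10 genes, of 24116 in the gene table, were *Krt7*, *Krt8*, *Krt18*, *Krt19*, *Cldn4*, *Cdx2*, *Gata3*, *Tfap2c*, *Elf5* and *Eomes*. They were selected on known roles together with the gene counts of these same 4 libraries, so the genotype comparison of each of them is a description and carries no test. *Terc* is the RNA template of telomerase, and its loss over generations of mice shortens telomeres. The groups were WT and G3 *Terc*-/- ESCs, where G3 is the third generation without telomerase RNA, although the titles carry G3 for the WT line as well. Each genotype was 1 ESC line of strain C57BL/6 (N12 for WT, F35 for G3 *Terc*-/-) with 2 libraries, and both lines grew on feeder cells in medium with serum and LIF, the cytokine that keeps ESCs undifferentiated. Genotype and line therefore cannot be told apart, and the labels do not say whether the 2 libraries of a line came from separate cultures, so the tests below measure only the spread between libraries.

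Keratins form intermediate filaments as pairs of a type I chain (*Krt18*, *Krt19*) and a type II chain (*Krt7*, *Krt8*), and *Krt8* with *Krt18* is the pair of simple epithelia and of the early embryo. *Cldn4* encodes a claudin, a strand protein of the tight junctions that seal the trophectoderm so that the blastocyst cavity can fill. *Cdx2*, *Gata3*, *Tfap2c*, *Elf5* and *Eomes* encode transcription factors that specify trophectoderm or maintain trophoblast stem cells, and ESCs normally hold the trophoblast program silent. *Eomes* has another use in the embryo, in the primitive streak and its mesoderm and endoderm.

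The 4 libraries held between 18047995 and 22520017 gene counts. *Terc* had 7 and 2 counts in the WT libraries against 0 and 0 in the knockout, where 0 allows up to 3 counts, so the targeted gene bears little weight as a check of the labels at this depth. Of 14896 genes with enough counts to test, 704 (4.73%) were higher and 466 (3.13%) lower in G3 *Terc*-/- at a fold change of 2 and an unadjusted P of 0.05, the cutoffs of the study. At an adjusted p below 0.05 (edgeR, quasi-likelihood test, Benjamini-Hochberg adjusted) and any fold change, 3238 (21.7%) were higher and 3241 (21.8%) lower, and the median log2 fold change of all tested genes was 0.00625. In 5287 genes (35.5%) both G3 *Terc*-/- libraries lay above both WT libraries, and in 5206 (34.9%) both lay below. DESeq2, a second tool for counts, called 571 of the same 14896 genes higher and 402 lower at the study's cutoffs, the background of its counts below. For an unadjusted P below 0.05 at any fold change the share over all genes was not computed. It cannot be smaller than the share by adjusted p. Counts by that rule are given below without a background, and nothing is read from them.

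Of the 10 genes, 9 had enough counts to test. *Krt7*, *Krt8*, *Krt18*, *Krt19*, *Cldn4* and *Gata3* lay past the cutoffs on the lower side and *Eomes* on the higher side, while *Cdx2* and *Tfap2c* lay inside them and *Elf5* was close to 0 counts. By adjusted p 7 were lower and 1 higher, and in 8 genes both G3 *Terc*-/- libraries were below both WT libraries and in 1 above. The percentages over all genes given above are the background of these counts, from which nothing is read because the values helped to choose the genes. Closest to the cutoff of 1 on the log2 scale were *Krt19* at -1.05 and *Gata3* at -1.06 just past it, and *Cdx2* at -0.84 just inside it. In bulk RNA, fewer cells of one type and less RNA in each cell cannot be told apart.

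Promoter sequences are shown for the 3 keratins with the largest decreases or the highest levels, for *Cldn4* and, as the one gene higher in G3 *Terc*-/-, for *Eomes*. They are the 250 bases upstream of the start, 5′ to 3′ on the strand of the gene, from RefSeq for GRCm38.p6, whose table held 8 of the 10 genes and not *Krt19* and *Tfap2c*. The windows are chr15:101412153-101412402 (plus strand) for *Krt7*, chr15:102004343-102004592 (minus strand) for *Krt8*, chr15:102027966-102028215 (plus strand) for *Krt18*, chr5:134946935-134947184 (minus strand) for *Cldn4* and chr9:118477939-118478188 (plus strand) for *Eomes*. Capitals mark matches, on either strand, to 7 short words. The word GCCNNNGGC is known from AP-2 factors such as *Tfap2c*. The word CATTCC is bound by the TEAD factors of the Hippo pathway. For GATA factors such as *Gata3* the word was AGATAA, for *Cdx2* and its relatives CCATAAA, and for T-box factors such as *Eomes* it was GGTGTGA. The last words were AGGAAG, of ETS factors such as *Elf5*, and GGGCGG, which SP and KLF factors of many promoters bind.
Krt7: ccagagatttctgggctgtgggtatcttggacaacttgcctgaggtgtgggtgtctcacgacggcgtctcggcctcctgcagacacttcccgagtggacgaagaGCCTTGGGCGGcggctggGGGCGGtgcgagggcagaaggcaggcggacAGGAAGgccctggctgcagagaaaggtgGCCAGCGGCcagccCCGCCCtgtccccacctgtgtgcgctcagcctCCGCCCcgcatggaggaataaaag
Krt8: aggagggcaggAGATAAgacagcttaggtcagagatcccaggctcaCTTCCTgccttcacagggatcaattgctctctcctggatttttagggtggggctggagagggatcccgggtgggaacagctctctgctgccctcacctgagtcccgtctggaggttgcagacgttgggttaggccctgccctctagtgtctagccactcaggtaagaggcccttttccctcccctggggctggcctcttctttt
Krt18: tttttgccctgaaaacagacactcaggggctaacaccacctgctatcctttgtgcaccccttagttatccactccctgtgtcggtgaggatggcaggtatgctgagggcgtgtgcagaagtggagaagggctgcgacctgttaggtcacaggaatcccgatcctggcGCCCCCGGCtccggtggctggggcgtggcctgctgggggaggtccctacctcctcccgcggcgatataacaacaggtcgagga
Cldn4: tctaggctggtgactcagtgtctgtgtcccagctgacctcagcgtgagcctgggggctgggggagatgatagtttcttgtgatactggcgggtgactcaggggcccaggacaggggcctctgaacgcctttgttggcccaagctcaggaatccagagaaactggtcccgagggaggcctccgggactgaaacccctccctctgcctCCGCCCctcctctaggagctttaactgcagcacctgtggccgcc
Eomes: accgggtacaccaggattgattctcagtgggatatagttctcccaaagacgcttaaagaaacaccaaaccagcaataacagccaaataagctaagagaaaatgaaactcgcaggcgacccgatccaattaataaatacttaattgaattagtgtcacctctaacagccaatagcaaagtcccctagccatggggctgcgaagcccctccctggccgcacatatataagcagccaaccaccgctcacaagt

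The *Krt7* window held 2 AP-2 words, 1 ETS word and 4 SP and KLF words, and matches may overlap one another. The *Krt8* window held 1 GATA and 1 ETS word, the *Krt18* window 1 AP-2 word, the *Cldn4* window 1 SP and KLF word and the *Eomes* window none of the 7. Among 32851 mouse promoter windows of the same length, the AP-2 word was in 13.7%, TEAD in 12.6%, GATA in 9.99%, CDX in 2.43%, T-box in 3.33%, ETS in 29.5% and SP and KLF in 32.7%. The windows of the 3 keratins and *Cldn4* were 58% to 66% G and C, against a median of 52.4% over all windows, while that of *Eomes* was 46.4%. A match is only a run of letters and says nothing of binding.

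*Krt7*, a type II keratin of simple epithelia, differed the most of the 10 genes. It lies on chromosome 15 (gene 110310, 101412403-101427806 of GRCm38, plus strand) and had 284 and 271 counts in the WT libraries against 27 and 28 in the G3 *Terc*-/- libraries. As CPM, the counts scaled to the library size with TMM, a normalization of edgeR, these were 13.01 and 12.2 in WT and 1.22 and 1.53 in G3 *Terc*-/-. *Krt7* was thus low in both G3 *Terc*-/- libraries, with no overlap, and the difference was 9.17-fold or -3.21 (SE 0.19) on the log2 scale.

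*Krt8* and *Krt18*, the partners of the simple epithelial filament, were by far the highest of the 4 keratins. *Krt8* (gene 16691, chromosome 15, 101996711-102004342, minus strand) measured 117 and 106 CPM in WT and 47.8 and 45.4 CPM in G3 *Terc*-/-, 2.40-fold lower (log2 fold change -1.26, SE 0.07). *Krt18* (gene 16668, chromosome 15, 102028216-102032026, plus strand) measured 87.0 and 83.0 CPM in WT and 23.2 and 25.5 CPM in G3 *Terc*-/-, 3.49-fold lower (log2 fold change -1.81, SE 0.07). In both genes the 2 libraries of a genotype lay close together and far from those of the other genotype. Some *Krt8* reads could belong elsewhere: a processed pseudogene on chromosome 7, which had no row in the table, matches 941 bases of *Krt8* at 98.6% identity, and 101 exonic bases are shared with the antisense gene *Gm36026*, with the strand setting of the counting not given in the sources used here.

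*Krt19*, the type I keratin that lacks a tail domain, was lower by the smallest fold of the 4. It lies apart from the others on chromosome 11 (gene 16669, 100140810-100145926, minus strand) and measured 8.66 and 8.70 CPM in WT and 4.06 and 4.33 CPM in G3 *Terc*-/-. Both G3 *Terc*-/- libraries were below both WT libraries, 2.07-fold lower (log2 fold change -1.05, SE 0.16). Without the first G3 *Terc*-/- library the value was -1.001.

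**Figure D1:**
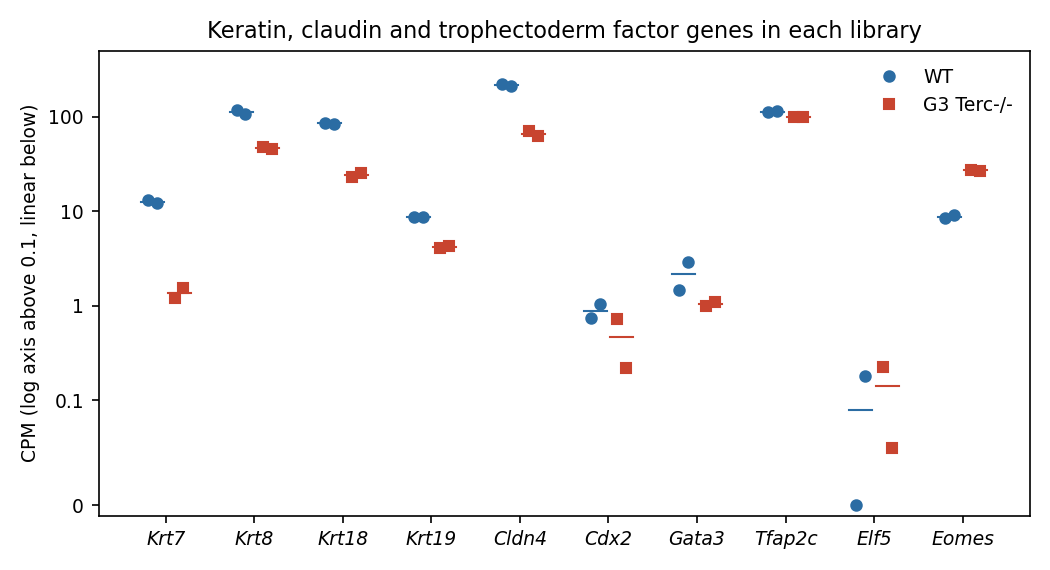
CPM (counts scaled to TMM library sizes) of each of the 10 genes (symmetric log axis, linear near 0) in the 2 WT and 2 G3 *Terc*-/- libraries; each point is a library and each line a group mean. Points of the 2 genotypes stand apart for *Krt7*, *Krt8*, *Krt18*, *Krt19* and *Cldn4* (lower in G3 *Terc*-/-) and *Eomes* (higher), nearly touch for *Cdx2* and overlap for *Elf5*.

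*Cldn4*, the tight junction protein, was lower in both G3 *Terc*-/- libraries. It lies on chromosome 5 (gene 12740, 134945123-134946934, minus strand) and had 4821 and 4681 counts in WT against 1562 and 1141 in G3 *Terc*-/-. In CPM these were 221 and 211 against 70.4 and 62.5, with no overlap, a 3.25-fold lower level (log2 fold change -1.70, SE 0.06).

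Among the transcription factors, *Tfap2c*, an AP-2 factor that trophectoderm shares with germ cells and naive ESCs, was plentiful and differed little. It measured 112 and 115 CPM in WT and 99.9 and 99.9 CPM in G3 *Terc*-/- (gene 21420, chromosome 2, 172545678-172558622, plus strand), a log2 fold change of -0.18 (SE 0.06). The G3 *Terc*-/- libraries were thus lower without overlap, but by far less than the keratins.

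*Gata3* and *Cdx2*, which act early in trophectoderm specification, were both at low counts. *Gata3* (gene 14462, chromosome 2, 9857078-9887953, minus strand) had 32 and 64 counts in WT against 22 and 20 in G3 *Terc*-/-, a log2 fold change of -1.06 (SE 0.33). Its value was -0.49 without the second WT library and -0.99 without the first G3 *Terc*-/- library, both inside the cutoff, and 155 of its exonic bases are shared with the antisense gene *Gm13256*. *Cdx2* (gene 12591, chromosome 5, 147300900-147307249, minus strand) had 16 and 23 counts in WT against 16 and 4 in G3 *Terc*-/-, a log2 fold change of -0.84 (SE 0.47). The G3 *Terc*-/- libraries of *Cdx2* differed more from each other than the group means did, and the value ran from -1.98 without the first of them to -0.29 without the second. *Elf5*, a gatekeeper of the trophoblast lineage that is methylated in ESCs, had 0 and 4 counts in WT against 5 and 1 in G3 *Terc*-/- (gene 13711, chromosome 2, 103412098-103450989, plus strand), so the groups overlapped and no fold was computed.

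*Eomes*, the T-box factor of trophoblast stem cells and of the primitive streak, was the one gene of the 10 that was higher in G3 *Terc*-/-. It lies on chromosome 9 (gene 13813, 118478186-118486132, plus strand) and had 184 and 201 counts in WT against 610 and 486 in G3 *Terc*-/-. In CPM these were 8.43 and 9.07 against 27.5 and 26.6, a 3.10-fold higher level (log2 fold change 1.63, SE 0.10). Both G3 *Terc*-/- libraries were high by almost the same amount. The antisense gene *Gm33460* shares 118 of its exonic bases.

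**Figure D2:**
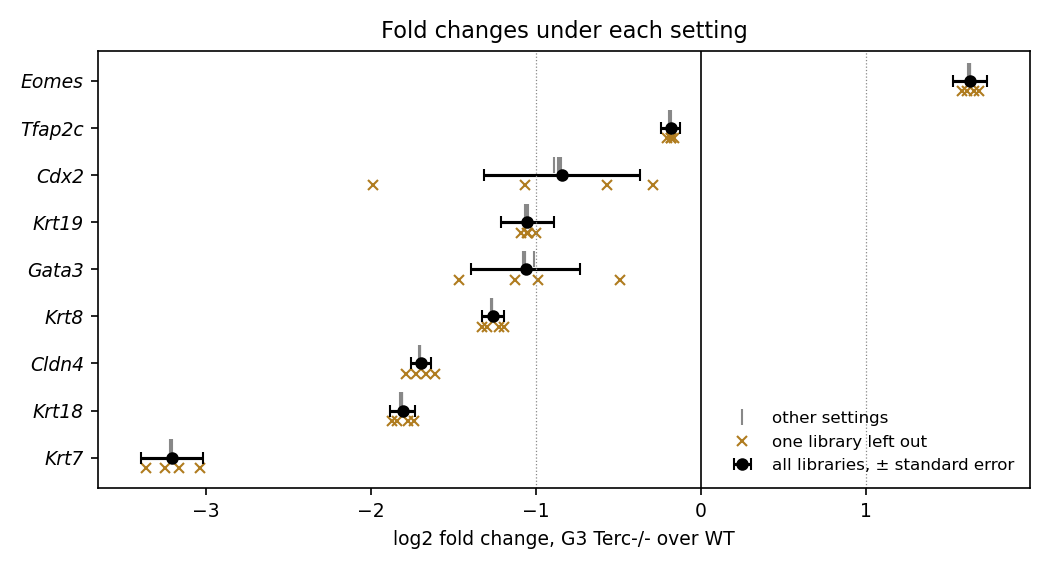
Log2 fold change of G3 *Terc*-/- over WT for the 9 tested genes (black points, bars of 1 standard error), with crosses for fits with 1 library left out, grey ticks for the other settings and dotted lines at a fold change of 2. *Krt7* stands lowest at -3.21, *Eomes* alone stands above 0 at 1.63, and *Cdx2* (-0.84) and *Tfap2c* (-0.18) lie inside the lines.

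Levels of different genes can be set side by side only per length, as RPKM, the CPM value divided by the exon length in kilobases. In WT, *Cldn4* came first with a mean level of 119 ± 3.76 RPKM (SD, n = 2), followed by *Krt18* at 59.1 ± 1.93 and *Krt8* at 57.1 ± 3.83 RPKM, which overlapped each other. *Tfap2c* followed at 34.6 RPKM, then *Krt19* at 5.51, *Krt7* at 3.08 and *Eomes* at 2.37 RPKM. *Gata3* at 0.677 RPKM overlapped *Cdx2* at 0.391 RPKM, and *Elf5* came last at 0.0339 RPKM. In G3 *Terc*-/- the order of levels was *Cldn4* (36.6 RPKM), *Tfap2c* (30.5), *Krt8* (23.8), *Krt18* (16.9), *Eomes* (7.33), *Krt19* (2.66), *Krt7* (0.336), *Gata3* (0.325), *Cdx2* (0.208) and *Elf5* (0.0526 RPKM). Here *Tfap2c* stood above both filament partners and *Eomes* above *Krt19* and *Krt7*, while *Gata3* overlapped its neighbours *Krt7* and *Cdx2* in that order. The length is the union of all annotated exons, 4094 bases for *Krt7* against 1576 for *Krt19*, and the order of genes depends on it. In mean CPM, *Krt7* stood above *Krt19* in WT, at 12.6 against 8.68.

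The balance between keratin chains was not the same in the 2 genotypes. The ratio of *Krt8* to *Krt18* in RPKM was 0.988 and 0.941 in WT and 1.51 and 1.31 in G3 *Terc*-/-, higher in both G3 *Terc*-/- libraries. The ratio of *Krt7* to *Krt19* was 0.578 and 0.541 in WT and 0.115 and 0.136 in G3 *Terc*-/-. Which chain of a pair was in excess cannot be read from these ratios. They depend on the exon lengths used and, for *Krt8*, on the reads that could belong elsewhere. Summed, the 4 keratins measured 125 ± 5.88 RPKM in WT and 43.7 ± 0.455 RPKM in G3 *Terc*-/- (SD, n = 2 each). They made up 79.0% ± 0.428 of all keratin RPKM in WT and 74.5% ± 3.62 in G3 *Terc*-/- (SD, n = 2 each). The G3 *Terc*-/- libraries, at 71.9% and 77.0%, differed more from each other than the group means did. The share of *Cldn4* in all claudin RPKM was 56.8% ± 0.834 in WT and 42.4% ± 2.59 in G3 *Terc*-/- (SD, n = 2 each).

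The other keratins of the table also moved mostly down. This list and those below were drawn up with earlier results of these data known, so their counts and adjusted p-values are no independent support for the 10 genes, and no list was tested as a whole. Of 50 genes with a Krt symbol and a number, 12 had enough counts to test and 14 were at 0 in all 4 libraries. At the study's cutoffs 7 of the 12 fell and 1 rose, against 3.13% and 4.73% of all tested genes, and the median log2 fold change was -1.28. *Krt42*, a type I keratin, had 602 and 615 counts in WT against 267 and 177 in G3 *Terc*-/- (log2 fold change -1.34, adjusted p = 1.74e-14, edgeR's quasi-likelihood test). *Krt17*, of stressed and appendage epithelia, fell by 1.22 on the log2 scale (adjusted p = 6.60e-09, edgeR), or by 0.997 without the second G3 *Terc*-/- library, just inside the cutoff. The basal epidermal partners *Krt14* and *Krt5* were rarer: *Krt14* had 49 and 64 counts in WT against 16 and 4 in G3 *Terc*-/-, and *Krt5* had 23 and 43 against 2 and 3. *Krt6a* had 17 and 14 counts against 0 and 1, and the remaining fallen genes were *Krt9* and *Krt16*. The gene that rose was *Krt75*, at an adjusted p of 0.0779, and by adjusted p 0 keratins rose and 7 fell (all tested genes: 21.7% and 21.8%), while DESeq2 called 0 risen and 7 fallen and 8 were lower at an unadjusted P below 0.05. *Krt10*, of the differentiated epidermis, measured 1.57 CPM in WT and 1.60 CPM in G3 *Terc*-/- (SD 0.435 and 0.480, n = 2 each).

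Of 24 other claudins 8 were tested, of which 2 fell and 0 rose (all tested genes: 3.13% and 4.73%), with a median log2 fold change of -0.57. *Cldn7*, a claudin of many epithelia, fell from 32.6 ± 0.356 to 12.9 ± 0.861 CPM (SD, n = 2 each, adjusted p = 6.09e-16, edgeR). *Cldn5*, known from endothelium, was the other, at a log2 fold change of -1.06 (adjusted p = 0.0371, edgeR), a call lost with DESeq2 and without the first WT or the second G3 *Terc*-/- library. By adjusted p 5 claudins fell and 0 rose (all tested genes: 21.8% and 21.7%), the same counts as at an unadjusted P below 0.05, and DESeq2 called 1 fallen and 0 risen at the study's cutoffs. *Cldn6*, the second claudin by level and an ESC and early epithelial gene, fell by 0.89 on the log2 scale (adjusted p = 7.21e-15, edgeR), *Cldn3* by 0.65 (adjusted p = 2.84e-04) and *Cldn12* by 0.31 (adjusted p = 0.00127, edgeR for all).

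**Figure D3:**
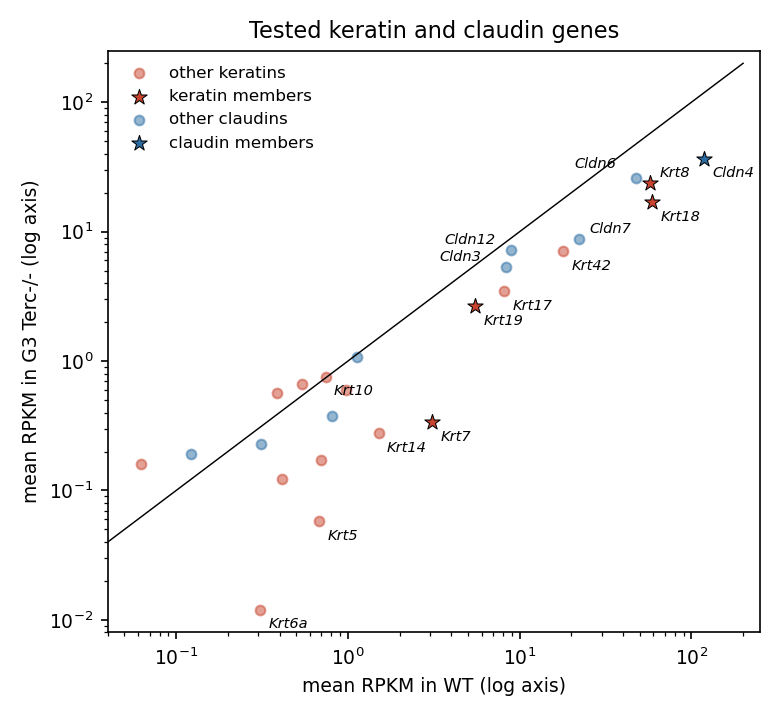
Mean RPKM in WT (horizontal, log axis) and in G3 *Terc*-/- (vertical, log axis) of every tested keratin (red) and claudin (blue), with stars for the genes of the set and a line of equal levels. *Krt8*, *Krt18* and *Cldn4* are at the top right below the line, *Krt7* and *Krt14* lie far below it and *Krt10* lies next to it.

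Epithelial junction and polarity genes outside these families made a list of 42, of which 41 had enough counts. At the cutoffs 8 fell and 0 rose (all tested genes: 3.13% and 4.73%), with a median log2 fold change of -0.42, and DESeq2 gave the same 8 and 0 counts. By adjusted p 27 fell and 3 rose, against 21.8% and 21.7% of all tested genes. At an unadjusted P below 0.05, 30 were lower and 4 higher, a rule whose share over all genes was not computed. *Esrp1*, the epithelial splicing regulator, fell from 83.6 to 28.0 CPM (log2 fold change -1.58, adjusted p = 3.88e-22, edgeR). The membrane protease *Prss8* fell by 1.59, the vesicle GTPase *Rab25* by 1.52, the sorting adaptor *Ap1m2* by 1.01 and the apical polarity gene *Crb3* by 1.01 on the log2 scale, and the last pair fell short of the fold cutoff without the first G3 *Terc*-/- library (-0.98 and -0.95), *Ap1m2* also without the second WT library (-0.91). *Cdh1*, the E-cadherin that ESCs and epithelia share, fell less, from 606 to 422 CPM (log2 fold change -0.52, adjusted p = 2.20e-12, edgeR), and *Ezr*, a linker of membrane and actin, fell by 0.25. The 3 genes that rose by adjusted p were *Perp* (log2 fold change 0.84), *Spint1* (0.73) and *Eppk1* (0.42), all inside the fold cutoff.

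Other trophoblast genes were mostly lower, though some rose. Of 31 listed, 24 were tested, 5 fell and 1 rose (all tested genes: 3.13% and 4.73%), and the median log2 fold change was -0.34. *Fgfr2*, the receptor through which FGF4 sustains trophoblast stem cells, fell from 23.5 to 6.67 CPM (log2 fold change -1.82, adjusted p = 1.82e-16, edgeR). *Rhox6*, a placental homeobox gene, fell by 2.66, *Fgfbp1*, which releases FGFs, by 2.14, the endocytic receptor *Lrp2* by 1.65 and the giant cell factor *Hand1* by 1.94 on the log2 scale. *Aqp3*, a water channel of trophectoderm, rose from 14.7 to 38.9 CPM (log2 fold change 1.40, adjusted p = 1.64e-17, edgeR). *Atp1b1*, a sodium pump subunit used in filling the blastocyst cavity, and *Cdh3*, the P-cadherin of placenta, fell by 0.36 and 0.33. By adjusted p 13 fell and 3 rose (all tested genes: 21.8% and 21.7%), and *Tpbpa*, *Prl3d1* and *Synb*, which mark differentiated placental cells, were at 0 counts in all 4 libraries.

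Hippo, Notch and polarity genes, whose products control *Cdx2* in the outer cells of the embryo, were all above the count filter. Of 31 tested, 1 fell and 0 rose at the cutoffs (all tested genes: 3.13% and 4.73%), a share of falls close to the background, with a median log2 fold change of -0.16, and DESeq2 also called 1 and 0, while 15 were lower and 8 higher at an unadjusted P below 0.05 and 15 and 7 by adjusted p (all tested genes: 21.8% and 21.7%). The gene that fell was *Amot*, a junctional scaffold of the Hippo pathway, by 1.15 on the log2 scale (adjusted p = 9.89e-11, edgeR). *Yap1*, the transcriptional coactivator, fell by 0.20 (adjusted p = 0.00129, or 0.0537 without the first WT library), *Rbpj*, the DNA-binding partner of Notch, by 0.30 (adjusted p = 2.68e-06), and *Ccn2*, a target of YAP, rose by 0.30 (adjusted p = 2.46e-06, edgeR for all).

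**Figure D4:**
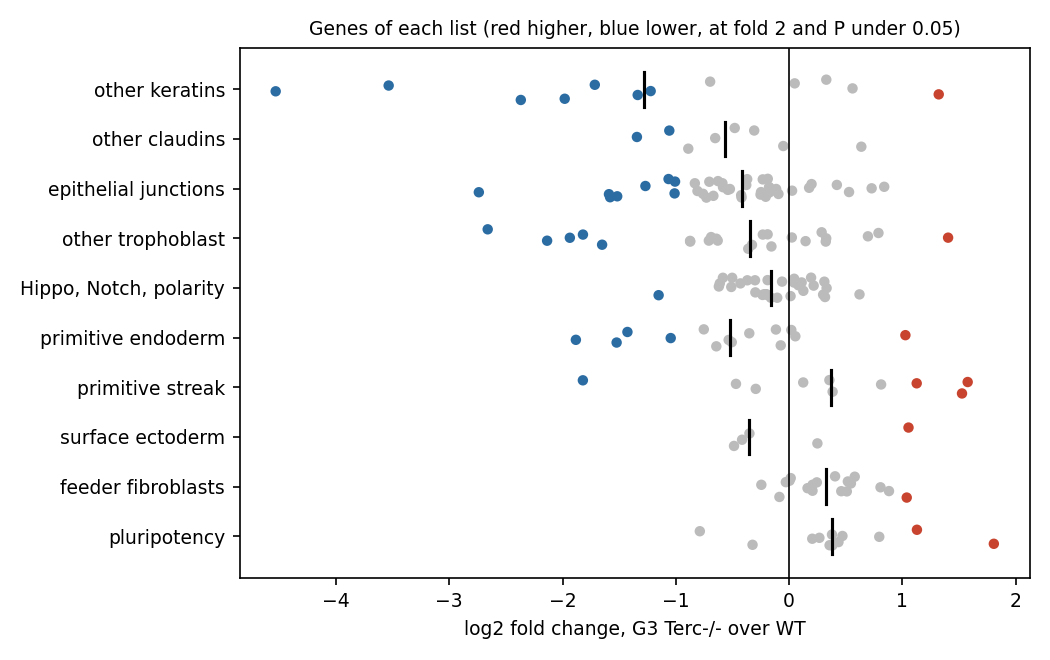
Log2 fold change of G3 *Terc*-/- over WT for every tested gene of each list (1 point a gene), with a black bar at the median of the list; genes past the cutoffs of a fold change of 2 and P of 0.05 are red (higher) or blue (lower). The medians are -1.28 for other keratins, -0.57 for other claudins and -0.42 for epithelial junction genes, against 0.00625 over all tested genes.

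Markers of the cell types that such cultures can hold were read beside these results. The pluripotency genes were high in both lines: *Pou5f1* measured 933 ± 1.26 CPM in WT and 1216 ± 9.66 CPM in G3 *Terc*-/- (SD, n = 2 each), *Sox2* 487 and 659 CPM, and 2 of 12 genes, *Nanog* (log2 fold change 1.13) and *Tbx3* (1.81), rose past the cutoffs while 0 fell (all tested genes: 4.73% and 3.13%). By adjusted p 10 pluripotency genes rose and 2 fell (all tested genes: 21.7% and 21.8%), one of them *Dppa5a*, by 0.79, and DESeq2 called 2 and 0. Feeder fibroblast genes summed to 672 and 448 CPM in WT and 695 and 487 CPM in G3 *Terc*-/-, so they differed between libraries of a genotype more than between genotypes. In both genotypes the library numbered 1 had the higher sum. Of 18 tested feeder genes 1, *Dcn*, rose and 0 fell, against the same 4.73% and 3.13% of all tested genes (DESeq2: 0 and 0; at an unadjusted P below 0.05: 9 and 1), and *Col1a1* measured 48.1 and 53.4 CPM.

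Primitive endoderm, an epithelium that also uses *Krt8*, *Krt18* and *Krt19*, had a lower summed marker level in G3 *Terc*-/-. Its 18 markers summed to 431 and 389 CPM in WT and 366 and 324 CPM in G3 *Terc*-/-, and of 14 tested 4 fell (among them *Cubn* by 1.88, *Dab2* by 1.05 and *Gata6* by 1.43 on the log2 scale) and 1 rose (*Fst*, 1.03), against 3.13% and 4.73% of all tested genes, while DESeq2 called 3 lower and 1 higher. The calls of *Dab2* and *Fst* were each lost without 1 or more of the libraries. The defining factors were low, with *Gata6* at 3.46 and 1.26 CPM and *Sox17* at 0.773 and 0.480 CPM in WT and G3 *Terc*-/-. Surface ectoderm markers summed to 194 and 191 CPM against 147 and 133 CPM, with 1 of 5 tested genes higher (*Wnt6*, log2 fold change 1.05) and 0 lower, against 4.73% and 3.13% of all tested genes (DESeq2: 1 and 0; at an unadjusted P below 0.05: 1 and 2), and with the defining gene *Trp63* at 1 and 4 counts in WT against 5 and 1 in G3 *Terc*-/-. Most of the surface ectoderm sum was *Sfn* alone, at 177 CPM in WT and 126 CPM in G3 *Terc*-/-. The primitive endoderm sum was mostly *Lamb1* (211 and 201 CPM), *Col4a1* (88.2 and 69.0 CPM) and *Col4a2* (46.6 and 32.7 CPM, WT and G3 *Terc*-/- means). Both sums thus rest on few genes. They moved in the direction of the keratins, and their part in the keratin values was not tested.

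Primitive streak markers, the other setting of *Eomes*, went in both directions. They summed to 20.4 and 20.4 CPM in WT and 38.4 and 35.6 CPM in G3 *Terc*-/-, with 3 of 10 tested genes risen and 1 fallen (all tested genes: 4.73% and 3.13%). Most of the difference in the sum was *Cdx1*, at 9.16 CPM in WT and 20.0 CPM in G3 *Terc*-/-. *Cdx1*, a caudal homeobox gene, rose by a log2 fold change of 1.13 (adjusted p = 2.75e-11), *Fgf8* by 1.53 (adjusted p = 1.50e-04) and *Gsc* by 1.58 (adjusted p = 0.00100, edgeR for all), while *Cdx4* fell by 1.82 (adjusted p = 0.00262, edgeR, a value above 0.05 with DESeq2 and without the first G3 *Terc*-/- library). *T* (brachyury), the central streak factor, was at 4.07 ± 0.397 CPM in WT and 7.15 ± 0.0317 CPM in G3 *Terc*-/- (SD, n = 2 each, log2 fold change 0.81, adjusted p = 1.26e-04, edgeR), and *Lhx1*, *Evx1*, *Tbx6*, *Wnt3* and *Mixl1* did not pass at either rule. The part of streak-like cells in the *Eomes* level was not tested.

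*Krt8* and *Krt18* are neighbours with diverging transcription, 23873 bases apart and with no gene of the table between them, and *Krt7* lies on the same chromosome within the keratin cluster. For the counts around each gene, the background over all tested genes was 4.73% higher and 3.13% lower at the cutoffs. No such share was computed for an unadjusted P alone. Nothing is read from the counts in windows this small. Around *Krt8*, 22 tested genes outside the set lay within 500 kb, of which the 19 that are not keratins had a median of 0.0273 on the log2 scale, and 0 of them passed the cutoffs in either direction by edgeR or DESeq2 (3 higher and 4 lower at an unadjusted P below 0.05). The corresponding median around *Krt18* was 0.0498 over 21 genes and around *Krt7* 0.0779 over 8 genes, again with 0 past the cutoffs by either tool (3 higher and 4 lower, and 3 and 3, at an unadjusted P below 0.05). Around *Krt19*, which sits in the type I cluster, 16 non-keratin genes had a median of -0.116, 1 of them (*Gast*, not called by DESeq2) higher and 0 lower (2 and 5 at an unadjusted P below 0.05), whereas *Krt9*, *Krt14*, *Krt16*, *Krt17* and *Krt42* of the same window fell. Around *Cldn4*, 26 genes had a median of -0.0731, with 0 higher and 1, *Hip1*, lower (log2 fold change -1.02), and 2 higher and 9 lower at an unadjusted P below 0.05. Around *Eomes*, 5 genes had a median of -0.0615, with the integrin gene *Itga9* higher (1.30; 1 higher and 2 lower at an unadjusted P below 0.05), and around *Gata3*, 5 genes had a median of -0.105, with *Sfmbt2* (-1.61) and *Itih5* (-1.23) lower, of which DESeq2 called 1 (0 higher and 2 lower at an unadjusted P below 0.05). Around *Cdx2* and *Tfap2c* the medians were -0.145 and -0.110, with 0 past the cutoffs by edgeR or DESeq2 (1 higher and 4 lower, and 1 and 1, at an unadjusted P below 0.05).

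**Figure D5:**
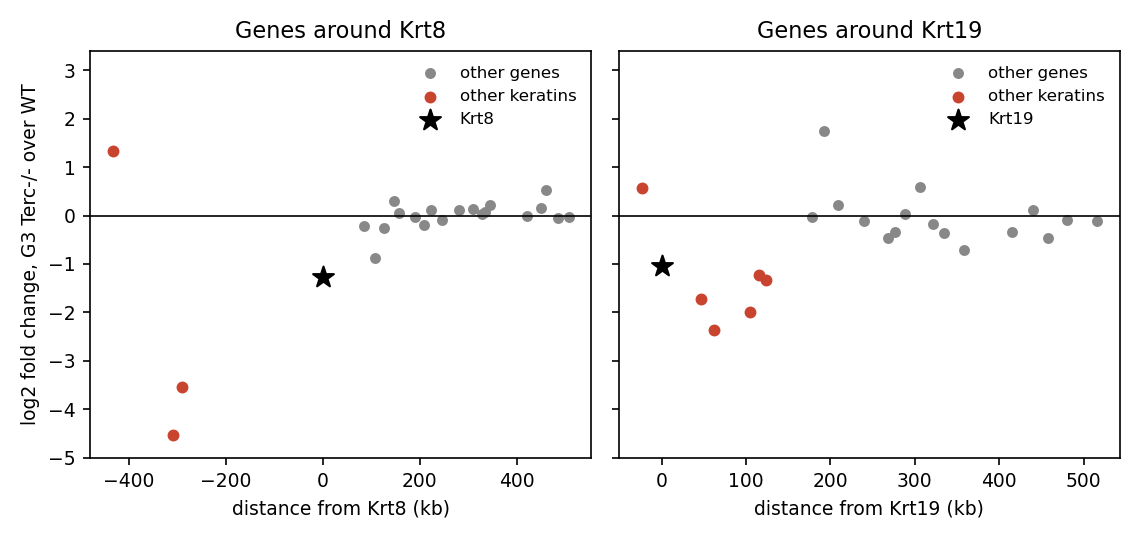
Log2 fold change of tested genes within 500 kb of *Krt8* (left) and *Krt19* (right), by the distance between gene centres in kb, with a star for the named gene, red points for other keratins and grey points for all other genes; genes of the set other than the star are not drawn. The 19 grey genes around *Krt8* have a median of 0.0273, and all points below -1 other than the star are keratins in both panels.

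The genes outside the set with profiles nearest to the mean of *Krt8* and *Krt18* were *Cadps2*, *Septin1*, *Fam3c*, *Txnip* and *Mt1*, at Euclidean distances of 0.0372, 0.0725, 0.0772, 0.0791 and 0.0842 between centred log2 CPM over the 4 libraries. They encode a regulator of vesicle release, a septin, a secreted protein, an inhibitor of thioredoxin and a metal-binding protein, in that order. The 4 points of each profile are the same 4 libraries in 2 groups, so this likeness is a description only. For *Cadps2* the distance rests on few reads, 22 and 20 from the WT line, 6 and 5 from the knockout line. *Cadps2* (23262773-23841175) and *Fam3c* (22306520-22356081) both lie on chromosome 6. The paper reports loss of part of that chromosome in its G3 *Terc*-/- ESCs. Whether the lost part holds these genes was not tested.

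RLTR13D5, a repeat family whose copies serve as enhancers in trophoblast stem cells, was measured separately in the counts on transposable elements. It had 131 and 175 counts in WT against 156 and 159 in G3 *Terc*-/-, or 64.8 and 84.6 against 73.9 and 86.9 CPM of the transposable element counts. The groups overlapped, and the log2 fold change was 0.10 (SE 0.16, adjusted p = 0.711, edgeR's quasi-likelihood test over 917 families, of which 74 or 8.07% passed the study's cutoffs of 1.5-fold and P of 0.05). Over the alternatives the value ran from -0.0779 to 0.305 and the adjusted p from 0.257 to 0.968 (edgeR and DESeq2), so a direction was not detectable at this depth. Of 745 copies only 64 had a count, and 1 copy held 39.5% of all counts of the family.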

How the data were processed

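RNA-seq of poly(A) RNA from 2 WT and 2 G3 *Terc*-/- ESC libraries was analysed. Per the submitters' processing notes and the methods, reads were trimmed with Trim Galore, aligned to mm10 with STAR and counted with featureCounts; versions and the strand setting are not given in the sources used here. The authors deposited raw counts of reads per gene and per transposable element copy, with no normalization. Of 24116 gene rows 24061 matched a symbol.

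Fold changes came from edgeR 4.0.16 in R 4.3.3 (TMM, filterByExpr and the quasi-likelihood test, with genotype alone in the model), with Benjamini-Hochberg adjustment over all 14896 genes or 917 repeat families tested; repeat copies were summed by name. Gene counts were 22057607 and 22520017 for WT and 21898081 and 18047995 for G3 *Terc*-/-, and element counts 1805047 to 2104586. CPM used library totals scaled by TMM, and RPKM divided CPM by the union of exons of the GENCODE M21 basic annotation. Log2 CPM for the nearest profiles used a prior count of 2. Limits for 0 counts cover counting error only. The study itself called genes with another tool (Cufflinks), and edgeR was used because the table holds counts.

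The 10 genes and all lists were chosen with earlier results of these data known. Besides these genes the text names, from each list, up to 5 genes with the smallest p past the cutoffs and up to 3 with the highest mean CPM, fixed defining markers, *Terc*, and the 5 nearest profiles. *Hand1*, *Krt9*, *Krt16*, *Krt75*, *Cldn3*, *Lhx1*, *Evx1*, *Tbx6*, *Perp*, *Spint1*, *Eppk1* and the neighbouring genes were named after their values were seen. Some genes that this rule names are not reported here. Alternatives were DESeq2 1.42.0, its size factors in edgeR, no filter, the replicate number as a block, adjusted p-values, each library left out in turn (the lone library assumed to vary like the other group) and, for RLTR13D5, the scaling of the gene counts and its top copy left out. The fits were tested on simulated counts.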

Additional observations from a re-analysis of the deposited data

How the results depend on the processing

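Of the values that answer a comparison, 238 stayed near the reported one over all alternatives, 39 moved and 2 reversed; of those of single genes named from the lists, 521 stayed on their side of the cutoffs and 15 fell short of them. At an adjusted p below 0.05 and any fold change (edgeR's quasi-likelihood test), the counts were 3238 higher and 3241 lower for all genes, 3 and 13 for other trophoblast genes, 7 and 15 for Hippo, Notch and polarity genes, 3 and 27 for epithelial junction genes, 10 and 2 for pluripotency genes and 7 and 1 for feeder genes. By the same rule 7 primitive endoderm genes, 2 surface ectoderm genes and 5 other claudins were lower, and 0 other keratins higher. DESeq2 gave 0 feeder genes and 0 other keratins higher and 1 other claudin lower, and no filter on low counts gave 2 feeder genes and 0 other keratins higher.

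With 1 library left out, the counts ran from 1 to 2 for other trophoblast genes higher, 0 to 3 for feeder genes higher, 0 to 1 for primitive endoderm genes higher, 1 to 2 for primitive streak genes lower, 0 to 0 for other keratins higher and 1 to 2 for other claudins lower. The log2 fold changes ran from -3.36 to -3.03 for *Krt7*, -1.09 to -1.001 for *Krt19*, -1.98 to -0.29 for *Cdx2*, -1.47 to -0.49 for *Gata3* and -0.21 to -0.16 for *Tfap2c*, while *Krt8*, *Krt18*, *Cldn4* and *Eomes* moved by less than the spread between replicates. RLTR13D5 ran from -0.0779 to 0.305, reversed without the first WT library (-0.0779) and without the second G3 *Terc*-/- library (-0.0138). The cause of these moves was not tested. Counts under 100 over the 4 libraries, as for *Cdx2* and *Elf5*, limit what can be said of a direction.

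The replicate numbers of the labels name no shared batch, and deviations of equally numbered libraries correlated at 0.0617 over 14896 genes. Feeder fibroblast genes did follow the number. They summed to 672 and 448 CPM in the first and second WT library and to 695 and 487 CPM in those of G3 *Terc*-/-. Whether equally numbered libraries shared a culture or batch was not tested. With the replicate number as a block, 700 genes were higher and 461 lower, *Krt7* was at -3.21, *Gata3* at -1.01 and RLTR13D5 at 0.11, and the block moved no count of a list.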
